A study of Bos taurus with 6 samples.

Results

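The RNA of 10 genes that serve the supply of energy in muscle, of 18010 genes listed for the animals, was examined in the longissimus dorsi of 3 Shandong black cattle and 3 Luxi cattle. The genes were chosen by name: CKM, CKMT2, CKB and SLC6A8 of the creatine system, AK1, AMPD1 and AMPD3 of adenylate metabolism, MB for myoglobin, and UCP2 and UCP3 of the uncoupling proteins. All animals were 18 months old with no treatment named in the labels, each gave 1 RNA-Seq library from muscle, and the libraries are called replicates 1 to 3 of their breed. Shandong black cattle is a composite breed with Luxi cattle among its founders, and Luxi cattle is a local yellow breed. Each breed came from its own supplier, so breed and source cannot be told apart, and the sample labels do not give the sex of the animals.

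In muscle, creatine kinase moves phosphate between ATP and creatine, and phosphocreatine acts as the store from which ATP is rebuilt when contraction begins. Adenylate kinase makes ATP and AMP from ADP, and AMP deaminase then turns AMP into IMP, the entry to the purine nucleotide cycle, which is most active in fast glycolytic fibres. Myoglobin binds oxygen in oxidative fibres, and the uncoupling proteins are carriers of the inner mitochondrial membrane.

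The values are FPKM, a level that takes account of transcript length and library size, so levels can be compared between genes. A gene's FPKM was the sum of its annotated transcripts and of those transcripts assembled from the reads that lay on its exons with 50% or more of their bases. The Shandong black libraries rested on 14.1 to 14.6 gigabases of aligned sequence and the Luxi libraries on 17.5 to 17.99 gigabases. Skeletal muscle identity was checked by 8 marker genes, whose summed FPKM was between 37520 and 46120 in Shandong black cattle and 15050, 60230 and 51700 in Luxi replicates 1, 2 and 3. Of these 8 genes, 0 were called by limma and 0 had an unadjusted p under 0.05. Luxi replicate 1 stood lowest in the summed level, which ACTA1 dominated. It was also the lowest animal in ACTA1 (12240 FPKM), DES (174), MYOT (210.1) and RYR1 (88.0). It was not the lowest in TTN, CASQ1 or MYBPC1, and was the highest of all animals in NEB (590.4 FPKM). The summed FPKM of 10 slow fibre markers was higher in every Shandong black animal (27460 to 33800) than in every Luxi animal (3824 to 14550), with 1 of the 10 called lower in Luxi cattle. That of 10 fast fibre markers was 3652 to 6032 in Shandong black cattle and 5058, 32070 and 29920 in Luxi replicates 1, 2 and 3, with 0 of the 10 called by limma and 6 at an unadjusted p under 0.05. That of 7 fat cell markers was 126.8 to 191.8 and 35.5 to 53.8, respectively, with 4 of the 6 tested called lower in Luxi cattle. That of 6 fibroblast markers was 109.7 to 160.7 and 359.8 to 480.1, with 1 of the 6 called higher. Endothelial markers (19.5 to 20.8 and 24.8 to 66.1), smooth muscle and mural markers (93.6 to 112.8 and 58.5 to 310.1) and nerve markers (48.1 to 119.9 and 9.38 to 29.2) had 0 genes called by limma and 2, 1 and 2 genes at an unadjusted p under 0.05, respectively. The nerve sum was nearly all S100B (85.58 against 17.85 FPKM on average). MBP, the other nerve marker tested, was higher in every Luxi animal (0.348 against 1.49 FPKM on average). No marker found was at 0 in all animals. The part of these shifts in the differences described for the energy genes was not tested, and in bulk muscle fewer cells of a type and less RNA per cell cannot be told apart.

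MB was the most abundant of the 10 genes in both breeds, followed by CKM. In Shandong black cattle the mean levels then descended through CKMT2, AK1, UCP3, AMPD3, AMPD1, SLC6A8 and UCP2 to CKB. In Luxi cattle the descent from CKM ran through AK1, CKMT2, AMPD1, UCP3, SLC6A8, UCP2 and AMPD3 to CKB. In Shandong black cattle the animals overlapped between CKMT2 and AK1, between AK1 and UCP3, between UCP3 and AMPD3, between AMPD3 and AMPD1, and between AMPD1 and SLC6A8, and in Luxi cattle between all neighbours except CKM and AK1, CKMT2 and AMPD1, and SLC6A8 and UCP2. This order compares ranges over animals, and some neighbours kept 1 order within every animal of a breed, as AK1 over UCP3 in Shandong black cattle and UCP2 over AMPD3 in Luxi cattle.

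Of the 10 genes, 9 passed the filter of a mean of at least 1 FPKM in at least 1 breed and were tested with limma on log2(FPKM + 1). Fold changes on this scale understate the change of low genes. A gene was called at a Benjamini-Hochberg adjusted p under 0.05 over the 9781 genes tested where its fold change was 1 or more on the log2 scale in either direction. By this rule 2 of the 9 were called, SLC6A8 higher and AMPD3 lower in Luxi cattle, where 2.57% of all genes tested were called, 1.54% higher and 1.02% lower. With size factors 113 genes were called higher and 139 lower, against 151 and 100 without scaling. The animals of the breeds did not overlap in 4 of the 9, where 29.1% of all genes tested did not overlap. Luxi cattle lay above in CKMT2, SLC6A8 and AMPD1 (3 of 9, against 20% of all genes) and below in AMPD3 (1 of 9, against 9.13%). The median log2 fold change of the 9 genes was 0.25, beside 0.13 for all genes tested, and 7 of the 9 fold changes were above 0, beside 62.5% of all genes. With size factors the medians were 0.11 and 0.03, with TPM 0.13 and 0.05 (6 of 9 above 0 each time), and with quantile normalization 0.03 and 0.00 (5 of 9 above 0). An unadjusted p under 0.05 was found in 5 of the 9, where 21.8% of all genes tested had one. With 3 animals a breed, the lowest two-sided p that exact permutation can reach is 0.1.

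**Figure D1:**
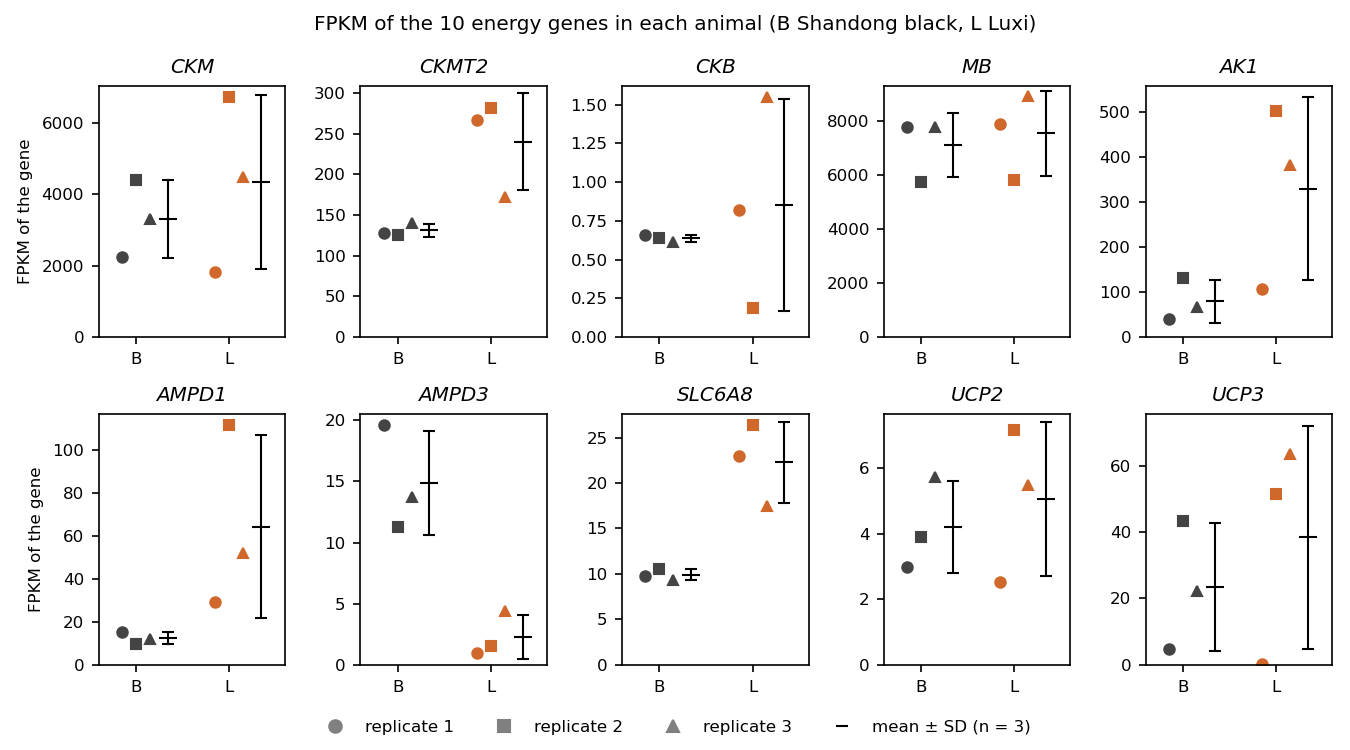
Each panel plots the FPKM of 1 gene (vertical axis, linear, from 0) in the 3 Shandong black (B, grey) and 3 Luxi (L, orange) animals, with the marker shape for the replicate and a black bar for the mean ± SD. The breeds are separate in CKMT2, AMPD1, AMPD3 and SLC6A8, and Luxi replicate 1 is the lowest Luxi animal for CKM, AK1, AMPD1, AMPD3, UCP2 and UCP3.

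**Figure D2:**
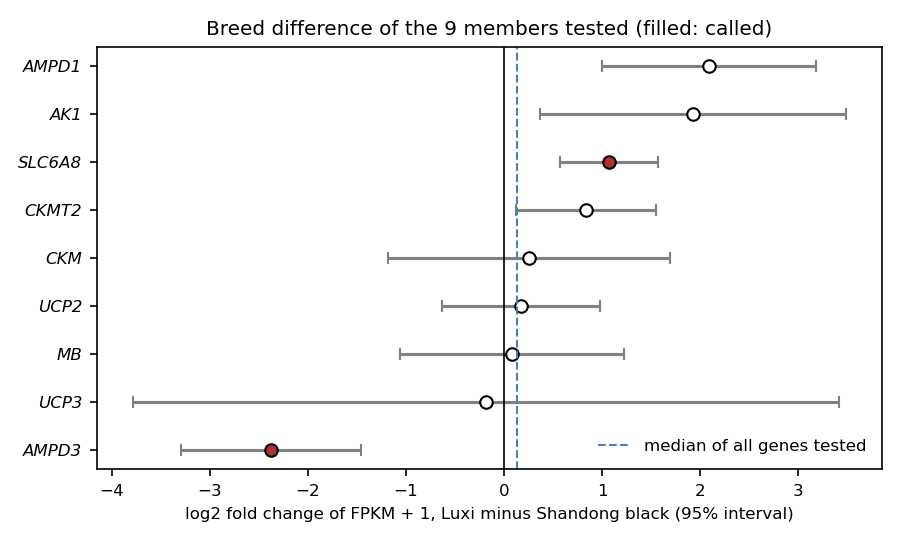
The log2 fold change of FPKM + 1, Luxi minus Shandong black (horizontal axis), is plotted with its 95% interval for the 9 genes tested, with filled circles for the called genes and a dashed line at the median of all genes tested, 0.13. SLC6A8 at 1.08 and AMPD3 at -2.38 are called, and the interval of UCP3 runs from -3.79 to 3.42.

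SLC6A8, the creatine transporter of the cell membrane, lies on the X chromosome from 36914289 to 36921866 on the plus strand of the ARS-UCD1.2 assembly, to which all coordinates here refer. Its FPKM was 9.83, 10.6 and 9.34 in Shandong black replicates 1, 2 and 3, and 23.0, 26.3 and 17.5 in Luxi replicates 1, 2 and 3. Every Luxi animal was above every Shandong black animal, and the Shandong black animals lay close together. The mean level was 22.3 ± 4.46 against 9.92 ± 0.635 (SD, n = 3 each), 2.25 times as high. The log2 fold change was 1.08 (SE 0.21, limma with Benjamini-Hochberg adjustment, adjusted p = 0.0480, exact permutation p = 0.1). The call sat at the edge of the threshold: it held in 3 of 11 other ways of processing and in 1 of the 6 fits that left out an animal, that without Luxi replicate 1, with fold changes from 0.93 to 1.23 throughout. All of its FPKM came from the single annotated transcript of 13 exons. In Luxi replicate 1 the last exon was read at 2.45 times the mean of the transcript. In the other animals it was read at 0.956 to 1.44 times. With no scaling for depth, exons 1, 7, 8 and 9 of Luxi replicate 1 had coverage of 71.2, 113.1, 94.0 and 110.4. In Shandong black replicate 1 it was 76.2, 93.2, 94.9 and 95.5, from 14.1 gigabases against 17.99. Luxi replicates 2 and 3 were above every Shandong black animal in these exons. The part of this unevenness in the call was not tested.

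CKM, the cytosolic muscle creatine kinase bound in part to the M-line, spans 52956486 to 52965891 on the minus strand of chromosome 18. It was present at 2232, 4407 and 3299 FPKM in Shandong black replicates 1, 2 and 3, and at 1832, 6718 and 4473 in Luxi replicates 1, 2 and 3. Both the lowest and the highest animal were Luxi cattle. The means were 3313 ± 1088 and 4341 ± 2446 (SD, n = 3 each), with a log2 fold change of 0.25 (SE 0.61, limma adjusted p = 0.838, 95% interval -1.18 to 1.69). The difference was within the spread between animals.

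CKMT2, the sarcomeric creatine kinase of the mitochondrial intermembrane space, spans 81249468 to 81274993 on the plus strand of chromosome 7. Its FPKM was 127.4, 125.5 and 140.5 in Shandong black replicates 1, 2 and 3, and 267.3, 281.2 and 172.02 in Luxi replicates 1, 2 and 3. All Luxi animals were above all Shandong black animals, with Luxi replicate 3 the nearest to them. The mean was 240.2 ± 59.4 against 131.1 ± 8.18 (SD, n = 3 each), 1.83 times as high. The log2 fold change of 0.84 (SE 0.30, 95% interval 0.13 to 1.55) did not pass the test (limma adjusted p = 0.170, exact permutation p = 0.1). Within an animal, CKMT2 amounted to 5.71%, 2.85% and 4.26% of CKM in Shandong black replicates 1, 2 and 3 and to 14.6%, 4.19% and 3.85% in Luxi replicates 1, 2 and 3. This ratio was far above the others in Luxi replicate 1, where CKM was lowest, and the breeds overlapped (exact permutation p = 0.7, adjusted p = 1.0 over the 6 ratios tested).

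CKB, the brain-type cytosolic creatine kinase, lies between 68158058 and 68161259 on the minus strand of chromosome 21 and was too low to be tested. Its FPKM was 0.658, 0.641 and 0.612 in Shandong black replicates 1, 2 and 3, and 0.819, 0.189 and 1.55 in Luxi replicates 1, 2 and 3. The Shandong black animals lay between the Luxi animals (difference of 0.11 in the mean of log2(FPKM + 1), exact permutation p = 0.7). In Luxi replicates 1 and 3 the annotated transcript was listed at 0 and the level came from short assembled transcripts. Transcripts listed off the gene's strand within its span reached up to 122% of the CKB level, in Luxi replicate 2. CKB stood at 0.00281% to 0.0447% of CKM over the 6 animals.

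Of the 9 genes of the creatine system looked for, 6 were found and 5 tested. SLC6A8 was the 1 gene called, beside 2.57% of all genes tested. Their median log2 fold change was 0.44, beside 0.13 for all genes. The 2 tested that are not among the 10 energy genes had a median of -0.17, with 0 called by limma. GATM, which makes the creatine precursor guanidinoacetate, was at 1.28, 2.56 and 1.87 FPKM in Shandong black replicates 1, 2 and 3 and at 0.476, 1.25 and 0.369 in Luxi replicates 1, 2 and 3. Every Luxi animal was below, by a narrow margin, and the gene did not pass the test (log2 fold change -0.79, SE 0.26, limma adjusted p = 0.142). GAMT, which methylates that precursor to creatine, overlapped between the breeds, at 12.5 ± 1.61 in Shandong black cattle and 20.7 ± 12.6 in the Luxi cattle (SD, n = 3 each; log2 fold change 0.44, limma adjusted p = 0.656). CKMT1, the other mitochondrial creatine kinase, was looked for as CKMT1, CKMT1A and CKMT1B and was not found by these names.

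AK1, the main cytosolic adenylate kinase of muscle, spans 98538949 to 98555122 on the minus strand of chromosome 11. It had 40.3, 131.9 and 66.5 FPKM in Shandong black replicates 1, 2 and 3, and 106.1, 500.6 and 381.1 in Luxi replicates 1, 2 and 3. The 2 highest animals were Luxi cattle, but Luxi replicate 1 lay below Shandong black replicate 2. The means were 79.6 ± 47.2 and 329.3 ± 202.3 (SD, n = 3 each), a ratio of 4.14, and the log2 fold change of 1.93 (SE 0.67, 95% interval 0.37 to 3.49) did not pass the test (limma adjusted p = 0.154, exact permutation p = 0.2). Without Luxi replicate 1, AK1 was called, at 2.61 on the log2 scale (limma adjusted p = 0.0357). Fast fibre markers were also low in that animal and high in the other Luxi animals, and their part in the AK1 values was not tested.

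Set against CKM of the same library, AK1 separated the breeds. It amounted to 1.81%, 2.99% and 2.02% of CKM in Shandong black replicates 1, 2 and 3, and to 5.79%, 7.45% and 8.52% in Luxi replicates 1, 2 and 3. Every Luxi animal, replicate 1 included, was above every Shandong black animal. The mean log2 ratio was -3.80 ± 0.28 against -5.49 ± 0.38 (SD, n = 3 each), a difference of 1.69 (exact permutation p = 0.1, the smallest possible, and 0.3 after Benjamini-Hochberg adjustment over the 6 ratios). Leaving out 1 animal moved the difference between 1.54 and 1.91.

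One of the 5 annotated AK1 transcripts, of 829 bases, carried 83.9% to 96.0% of the AK1 FPKM in each animal. Reads were not spread alike over its 7 exons. Exon 5 was read at 1.10 to 1.25 times the mean of the transcript in Shandong black cattle and at 0.657 to 0.801 times in Luxi cattle, and the last exon at 0.914 to 1.03 and 1.27 to 1.37 times. The breeds were separate in each of the 7 exons, with Luxi cattle lower in exons 1 to 5 and higher in exons 6 and 7. These profiles were looked at without a test. Their part in the AK1 level and in its ratio to CKM was not tested. Among 5 adenylate kinase genes tested, 0 were called by limma, beside 2.57% of all genes tested. An unadjusted p under 0.05 was found in 2, beside 21.8% of all genes. Their median log2 fold change was 0.09, beside 0.13 for all genes.

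The AMP deaminase genes AMPD1 and AMPD3 lay on opposite sides in the breeds, with AMPD3 called and AMPD1 not. AMPD1, the isoform known for skeletal muscle, spans 28636405 to 28658779 on the plus strand of chromosome 3. It had 15.5, 9.68 and 12.2 FPKM in Shandong black replicates 1, 2 and 3, and 29.1, 111.6 and 52.2 in Luxi replicates 1, 2 and 3. All Luxi animals were above all Shandong black animals, with Luxi replicate 2 the highest. The mean was 64.3 ± 42.6 against 12.4 ± 2.89 (SD, n = 3 each), 5.17 times as high. Its log2 fold change of 2.09 (SE 0.47, 95% interval 1.00 to 3.19) stayed outside the threshold (limma adjusted p = 0.0621, exact permutation p = 0.1). It passed with TPM (2.02, limma adjusted p = 0.0491), with quantile normalization (1.93, adjusted p = 0.0475) and without Luxi replicate 1 (2.55, adjusted p = 0.0205).

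AMPD3, the isoform first known from red blood cells and also present in muscle, spans 42181646 to 42225130 on the minus strand of chromosome 15. Its FPKM was 19.6, 11.2 and 13.7 in Shandong black replicates 1, 2 and 3, and 0.952, 1.51 and 4.37 in Luxi replicates 1, 2 and 3. Every Luxi animal was below every Shandong black animal. The mean was 14.8 ± 4.27 in Shandong black cattle and 2.28 ± 1.83 in the Luxi cattle (SD, n = 3 each), 6.52 times as high in Shandong black cattle. AMPD3 was called lower in Luxi cattle, with a log2 fold change of -2.38 (SE 0.39, 95% interval -3.30 to -1.46, limma with Benjamini-Hochberg adjustment, adjusted p = 0.0316, exact permutation p = 0.1). The call held in 9 of 11 other ways of processing and in 2 of the 6 fits that left out 1 animal, where the fold change stayed between -2.81 and -2.08. It was lost when any 1 of the Shandong black animals was left out (adjusted p from 0.0535 to 0.132, limma) and without Luxi replicate 2 (adjusted p = 0.0932, limma).

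The 4 red blood cell markers found, HBB among them, were under the filter and not tested. They summed to 0.652 to 0.805 FPKM in Shandong black cattle and 0.584 to 1.65 in the Luxi cattle. Of the 7 fat cell markers, FABP4, PLIN1, CIDEC and ADIPOQ were called lower in Luxi cattle, as AMPD3 was, while LPL was higher in every Luxi animal (17.1 against 32.2 FPKM on average, limma adjusted p = 0.106). The part of these markers in the AMPD3 difference was not tested. Transcripts off the gene's strand within its span carried 0.298 to 1.86 FPKM in Shandong black cattle and 0 to 1.11 in the Luxi cattle, or up to 73.0% of AMPD3 in Luxi replicate 1 and 25.4% in Luxi replicate 3. In Luxi replicate 1 the first AMPD3 exon was read at 0.0674 times the mean of the transcript, against 0.283 to 0.708 times in the other animals. Assembled transcripts that began at other first exons made up 35.6% of AMPD3 in Luxi replicate 2 and 22.7% in Luxi replicate 3.

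By FPKM the isoforms were close to equal within each Shandong black animal, and within each Luxi animal AMPD1 prevailed. By mean exon coverage, with all transcripts counted, AMPD1 was above AMPD3 in every animal. In Shandong black replicates 1, 2 and 3 this coverage was 304.3, 312.7 and 258.5 for AMPD1 and 273.4, 163.5 and 195.2 for AMPD3. The order of the isoforms in Shandong black cattle thus depends on the measure, and the ratios that follow are of FPKM. AMPD3 amounted to 126.6%, 116.1% and 112.7% of AMPD1 in Shandong black replicates 1, 2 and 3, and to 3.28%, 1.35% and 8.37% in Luxi replicates 1, 2 and 3. Put the other way, AMPD1 was 30.5, 73.9 and 11.9 times AMPD3 in the 3 Luxi animals. The mean log2 ratio of AMPD3 to AMPD1 was 0.24 ± 0.09 in Shandong black cattle and -4.91 ± 1.31 in the Luxi cattle (SD, n = 3 each). The difference of -5.15 had an exact permutation p of 0.1, or 0.3 after adjustment over the 6 ratios, and lay between -5.81 and -4.50 when 1 animal was left out. The ratio does not depend on the scaling of the libraries. The sum of both genes was 35.0, 20.9 and 25.9 FPKM in Shandong black replicates 1, 2 and 3, and 30.0, 113.1 and 56.5 in Luxi replicates 1, 2 and 3, so the summed level in Luxi replicate 1 lay among the Shandong black values.

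AMPD1 also differed in its transcripts. The annotated transcript has 16 exons, and exon 2, from 28637766 to 28637777, has 12 bases. Such a short exon of AMPD1 is known to be spliced in or out in mammals. In every animal 1 transcript without it was assembled. Transcripts without it carried 29.7%, 23.4% and 28.3% of AMPD1 in Shandong black replicates 1, 2 and 3, and 12.2%, 15.3% and 12.7% in Luxi replicates 1, 2 and 3, with all assembled AMPD1 transcripts counted. Every Shandong black animal was above every Luxi animal. As a share of the coverage of exon 3, they came to 23.4% to 28.3% and 12.1% to 16.3%, respectively. The pattern was chosen after its values were seen and has no test, and the shares are StringTie's split of the reads between transcripts, not counts of reads over junctions. In 5 of the animals the transcript without exon 2 also ran past the annotated end of the gene, so that the exon and the longer end cannot be told apart there. AMPD1 reached 1740, 2432 and 1768 bases past that end in Shandong black replicates 1, 2 and 3, and 1388, 1374 and 1374 bases in Luxi replicates 1, 2 and 3. In Shandong black replicate 2 this transcript, of 2.96 FPKM, missed the 50% rule and was not counted for the gene, whose level with it would be 12.6, above AMPD3 at 11.2.

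**Figure D3:**
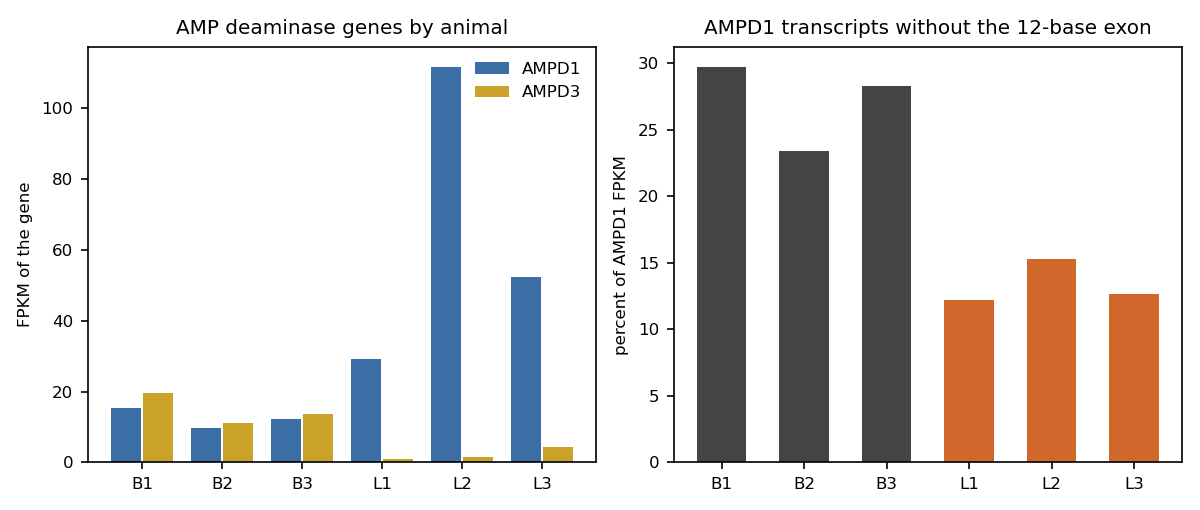
The left plot gives the FPKM of AMPD1 (blue) and AMPD3 (yellow) in each animal (B Shandong black, L Luxi, replicates 1 to 3), and the right plot the percent of AMPD1 FPKM in transcripts without the 12-base exon. In FPKM, AMPD3 is slightly above AMPD1 in the 3 Shandong black animals and far below it in the 3 Luxi animals. The uncounted AMPD1 transcript of Shandong black replicate 2 would raise AMPD1 there from 9.68 to 12.6, above AMPD3 at 11.2. By mean exon coverage, not plotted, AMPD1 is above AMPD3 in every animal. The share without the exon is 23.4% to 29.7% in Shandong black and 12.2% to 15.3% in Luxi cattle.

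Around the AMP deaminases, 14 genes of AMP deamination, the purine nucleotide cycle and adenine salvage were tested, of 17 found. Of the 14, 1 was called higher (NT5C1A) and 2 lower (AMPD3 and PNP) in Luxi cattle, beside 2.57% of all genes called, and the median log2 fold change was 0.08. The breeds did not overlap in 6 of the 14, beside 29.1% of all genes. PNP, which splits inosine and guanosine, was at 9.74, 7.71 and 5.18 FPKM in Shandong black replicates 1, 2 and 3, and at 0.157, 0.578 and 1.07 in Luxi replicates 1, 2 and 3. As for AMPD3, the Luxi values lay below all Shandong black values, and PNP fell by 2.42 on the log2 scale (SE 0.28, limma adjusted p = 0.0155). NT5C1A, a cytosolic nucleotidase that makes adenosine from AMP, was at 1.61, 1.295 and 2.21 FPKM and at 5.62, 4.56 and 4.54, respectively. It rose by 1.13 on the log2 scale in Luxi cattle (SE 0.19, limma adjusted p = 0.0315).

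Among the genes of the list that did not pass, NT5C2, a nucleotidase that prefers IMP and GMP, was below in all Luxi animals (21.6 ± 7.68 against 7.51 ± 3.28, SD, n = 3 each, log2 fold change -1.42, limma adjusted p = 0.0966). ADK, which returns adenosine to AMP, was above in all Luxi animals (3.65 ± 0.129 against 5.998 ± 0.679, SD, n = 3 each, log2 fold change 0.59, limma adjusted p = 0.0977). The genes of the cycle after AMP deaminase overlapped between the breeds. ADSSL1, the muscle adenylosuccinate synthase, was at 18.7, 35.3 and 20.4 FPKM in Shandong black replicates 1, 2 and 3 and at 20.6, 121.6 and 55.7 in Luxi replicates 1, 2 and 3 (log2 fold change 1.10, limma adjusted p = 0.332). ADSL, adenylosuccinate lyase, was at 20.8, 17.0 and 20.9 FPKM and at 14.8, 1.13 and 18.5, respectively, with Luxi replicate 2 far below the rest (log2 fold change -1.24, limma adjusted p = 0.386). AMPD2, the remaining AMP deaminase, was under the filter, at 0.827 ± 0.0911 and 0.432 ± 0.132 FPKM (SD, n = 3 each).

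MB spans 73814162 to 73824954 on the minus strand of chromosome 5. Its FPKM was 7799, 5733 and 7783 in Shandong black replicates 1, 2 and 3, and 7894, 5826 and 8932 in Luxi replicates 1, 2 and 3. The breeds overlapped almost fully, and replicate 2 was the lowest animal of each. The means were 7105 ± 1188 and 7550.5 ± 1581 (SD, n = 3 each), with a log2 fold change of 0.08 (SE 0.49, 95% interval -1.06 to 1.22, limma adjusted p = 0.940), and the sign turned with the scaling, to -0.04 with TPM, -0.06 with size factors and -0.12 with quantile normalization. MB stood at 349.4%, 130.1% and 235.9% of CKM in Shandong black replicates 1, 2 and 3, and at 430.8%, 86.7% and 199.7% in Luxi replicates 1, 2 and 3. Luxi replicate 2 was the 1 animal with more CKM than MB, and the ratio did not pass its test (difference in log2 ratio -0.17, exact permutation p = 0.9).

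In Shandong black replicate 2, 71.0% of the MB level came from an assembled transcript that differs from the annotated one, and in Luxi replicate 1 this was 29.0%, while in the other 4 animals the annotated transcript carried all of it. With annotated transcripts alone, MB in Shandong black replicate 2 would be 1665 FPKM instead of 5733. The slow fibre markers, typical of the fibres richest in myoglobin, were lower in Luxi cattle as a sum, which MYL2 dominated (20880 against 5086 FPKM on average, limma adjusted p = 0.131). Of the 10 markers, TNNI1 was called, MYL3 was higher in every Luxi animal (28.7 against 495.7 FPKM on average, limma adjusted p = 0.119), and MYH7, ATP2A2 and TPM3 overlapped between the breeds. The summed FPKM of 10 markers of mitochondrial respiration was 769.9 to 947.1 and 868.5 to 970.5, with 0 called by limma and 2 at an unadjusted p under 0.05. Of the other globin genes, CYGB, cytoglobin, was the 1 tested. It was below in all Luxi animals, at 1.23 ± 0.115 against 0.723 ± 0.289 (SD, n = 3 each), and did not pass (log2 fold change -0.38, limma adjusted p = 0.278).

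UCP2 and UCP3 are neighbours on the minus strand of chromosome 15, from 53409782 to 53416245 and from 53439744 to 53451130. UCP3 is the form known for skeletal muscle, and UCP2 is widely expressed and known from immune cells. UCP2 was low, at 2.99, 3.91 and 5.72 FPKM in Shandong black replicates 1, 2 and 3, and at 2.53, 7.18 and 5.48 in Luxi replicates 1, 2 and 3. Luxi cattle held both the lowest and the highest value. The log2 fold change was 0.17 (SE 0.34, 95% interval -0.64 to 0.97, limma adjusted p = 0.807), within the spread between animals. The macrophage and leukocyte markers, 9 genes of which 7 were tested, 0 called by limma and 2 at an unadjusted p under 0.05, summed to 31.7 to 41.9 and 15.5 to 33.7 FPKM, respectively.

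UCP3 had the widest spread of the 10 genes. Its FPKM was 4.69, 43.4 and 22.2 in Shandong black replicates 1, 2 and 3, and 0.174, 51.3 and 63.6 in Luxi replicates 1, 2 and 3. Luxi replicate 1 was almost at 0, and the other Luxi animals were the highest of all. The mean FPKM was higher in Luxi cattle (38.4 ± 33.6 against 23.4 ± 19.4, SD, n = 3 each), while the mean of log2(FPKM + 1) was lower, with a fold change of -0.19 (SE 1.54, limma adjusted p = 0.957).

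The value near 0 leaves out most of what was assembled at the gene. In Luxi replicate 1, 3 assembled transcripts that run through introns of UCP3 carried 18.5 FPKM, or 99.1% of what was assembled at the gene, and with under 50% of their bases on exons they were not counted. Such transcripts carried 18.2% in Shandong black replicate 1, 10.5% in Luxi replicate 2 and 16.9% in Luxi replicate 3, and were listed at 0 in Shandong black replicates 2 and 3. With them, UCP3 would be at 5.73, 43.4 and 22.2 FPKM in Shandong black replicates 1, 2 and 3 and at 18.7, 57.3 and 76.5 in Luxi replicates 1, 2 and 3. The breeds still overlapped, and the log2 fold change became 1.23 (limma adjusted p = 0.375), so the direction of UCP3 depends on which assembled transcripts are counted. This wider rule was chosen after seeing the data. The mean number of reads over the UCP3 exons, with no scaling for depth, was 99.8, 612 and 338 in Shandong black cattle and 442, 1049 and 1322 in Luxi replicates 1, 2 and 3.

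**Figure D4:**
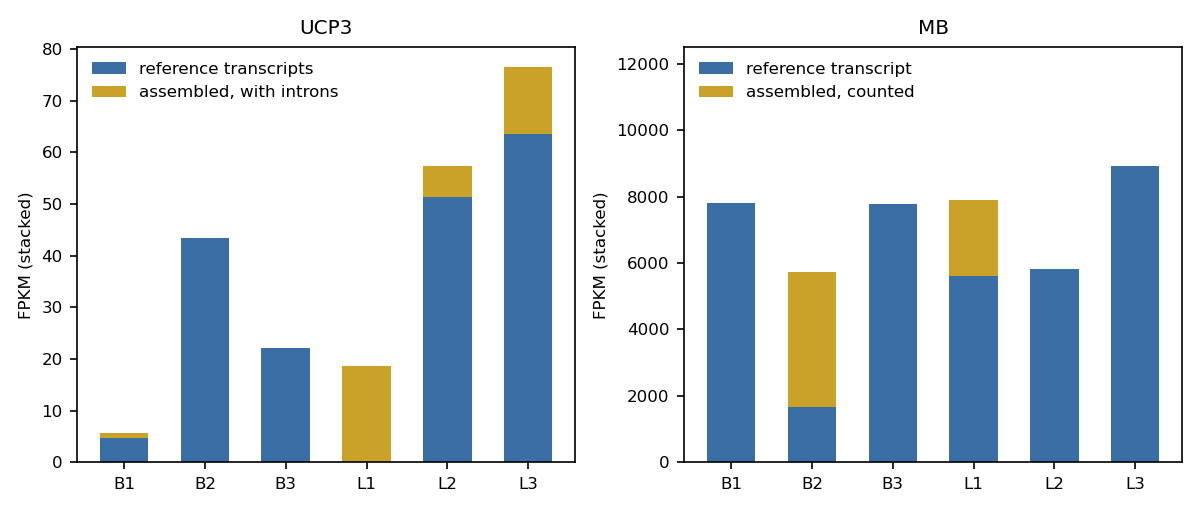
The stacked bars give the FPKM at UCP3 (left) and MB (right) in each animal, split into annotated reference transcripts (blue) and assembled transcripts (yellow), which were left out of the gene's level for UCP3 because they hold introns and counted for MB. In Luxi replicate 1 nearly all of UCP3, 99.1%, is in transcripts with introns, and in Shandong black replicate 2 the assembled transcript holds 71.0% of MB.

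Of 9 genes tested among the uncoupling proteins and mitochondrial carriers, 0 were called by limma, beside 2.57% of all genes tested. An unadjusted p under 0.05 was found in 1, beside 21.8% of all genes. Their median log2 fold change was 0.09, beside 0.13 for all genes. SLC25A4, the adenine nucleotide carrier of muscle, was higher in all Luxi animals (147.9 ± 9.51 against 205.3 ± 51.8 FPKM, SD, n = 3 each, log2 fold change 0.44, limma adjusted p = 0.410). SLC25A3, the phosphate carrier, was likewise higher (36.0 ± 2.11 against 80.1 ± 30.2, log2 fold change 1.05, limma adjusted p = 0.132). VDAC3, an outer membrane channel, was lower in all of them (165.0 ± 15.1 against 128.8 ± 13.8, log2 fold change -0.36, limma adjusted p = 0.449). None of these passed the test.

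Reads were uneven along several of the genes in ways that differed between breeds. The ratio of the last to the first exon of CKM was 24.3 to 37.0 in Shandong black cattle and 11.4 to 13.8 in the Luxi cattle, that of AK1 3.72 to 4.91 and 7.81 to 9.12, and that of MB 1.24 to 2.02 and 2.68 to 3.95. That of UCP2 was 2.09 to 10.2 and 11.5 to 111.9, that of UCP3 2.27 to 4.34 and 1.42 to 1.63, and that of SLC6A8 1.78 to 3.67 and 3.455 to 11.4. For CKM and UCP3 the ratio was higher in every Shandong black animal, and for AK1, MB and UCP2 in every Luxi animal. The UCP3 ratio includes the assembled transcripts that run through introns. For AMPD1 the breeds overlapped, at 0.318 to 0.732 and 0.306 to 0.858. The CKM ratio rests on a first exon of 54 bases with few reads, and its last exon was alike in the breeds. For CKMT2 it was alike in the breeds, at 0.184 to 0.288 and 0.182 to 0.223. For AMPD3 it was 0.990 to 1.61 in Shandong black cattle and 1.27 to 13.8 in the Luxi cattle, with the highest value in Luxi replicate 1. The part of these profiles in the breed differences was not tested.

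**Figure D5:**
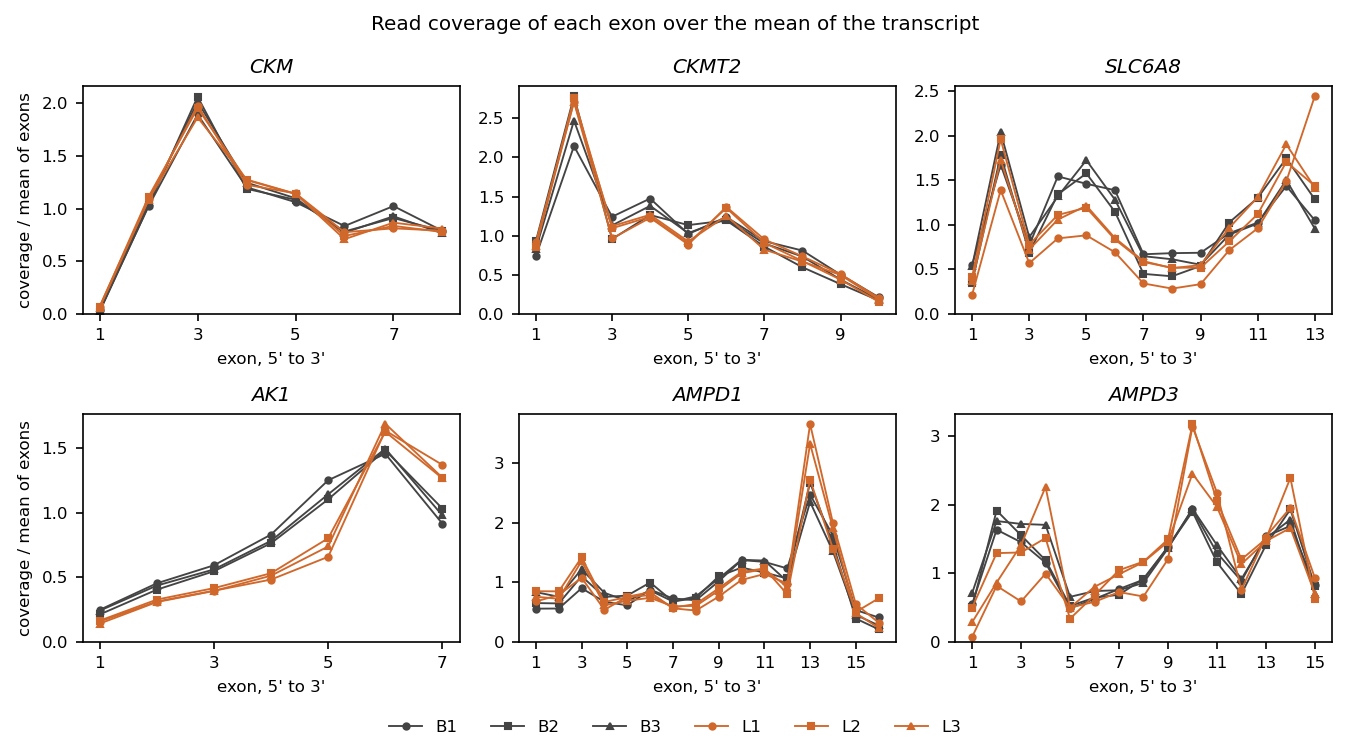
Coverage of each exon, with all transcripts of the gene counted, is plotted over the mean of all exons (vertical axis, a ratio) against the exon number from the 5′ end for 6 genes, with 1 line for each animal (grey B Shandong black, orange L Luxi). The lines of the breeds run close together over CKM. Its exon 1 is however read at 0.0212 to 0.0324 times the mean in Shandong black and 0.0587 to 0.0695 times in Luxi animals. Over AK1 the breeds part in every exon, as at exon 5 (1.10 to 1.25 against 0.657 to 0.801). In SLC6A8 the last exon of Luxi replicate 1 rises to 2.45.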

How the data were processed

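RNA-Seq libraries of 6 animals were used, grouped by the breed in the sample labels. The authors trimmed reads with Fastp, aligned them to ARS-UCD1.2 with HISAT and ran StringTie with the NCBI annotation as a guide, library by library. Per the file headers this was StringTie 1.3.3b with a stranded setting. Whether the TruSeq kit named in the labels marks strand is not given in the sources used here, so same-strand and off-strand values rest on that setting. The deposited coverage, FPKM and TPM of each transcript were read, and no read counts were used, so no count test or counting error is given and the number of animals limits the precision. Depth was the ratio of coverage to FPKM.

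Gene FPKM was the sum of annotated transcripts and of same-strand assembled transcripts that lay on the gene's exons with 50% or more of their bases. Assembled transcripts left out held 21.6 to 29.8% of the FPKM of a library. The 9781 genes whose mean reached 1 FPKM in either breed were tested with limma 3.58.1 in R 4.3.3 (lmFit, eBayes with trend) on log2(FPKM + 1), pseudocount 1, with Benjamini-Hochberg adjustment. Cuffdiff, the study's own test, needs alignments and was not used here. Within-animal ratios and single genes were compared by exact two-sided permutation tests in Python 3.11.15 with scipy 1.17.1. On simulated data for the 9781 genes, 62% of 200 genes shifted by 1.5 on the log2 scale were called, with 1 unchanged gene called. Of 200 genes shifted by 3, 94.5% were called, with 11 unchanged genes called. Noise was drawn as normal, independently for each gene and with the same SD in both breeds. In the data the SD could differ, as for AMPD1 (0.31 in Shandong black and 0.96 in Luxi cattle, log2 scale). These shares may therefore not hold for the data.

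The genes, lists and tests were chosen with earlier results of these data known. Named are the 10 energy genes, the genes of the pathway and marker lists where a count or value needs them, and the 2 genes most correlated with each tested one. Transcript, exon and strand values are descriptions.

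Alternatives were another pseudocount, no filter or a stricter one, TPM, size factors, quantile normalization, no trend, a replicate block, other rules for assembled transcripts, other fold-change minimums and leaving out each animal in turn.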

Additional observations from a re-analysis of the deposited data

How the results depend on the processing

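Over 17 alternatives each, 11 of processing and 6 that leave out 1 animal, AK1, AMPD1, AMPD3, CKMT2 and SLC6A8 kept their direction. MB turned to -0.042 with TPM, -0.0611 with size factors and -0.12 with quantile normalization, UCP2 to -0.0109 with quantile normalization, and UCP3 to 1.23 when assembled transcripts with at least 20% of bases on exons were counted, an alternative chosen after seeing the data. Under that rule transcripts with introns enter for UCP3, and the cause of these turns was not tested. The log2 ratio of MB to CKM became 0.26 with annotated transcripts only and that of UCP2 to UCP3 -1.11 under the 20% rule. CKB to CKM with annotated transcripts only, UCP2 with a mean of at least 5, and CKB under most filters gave no value.

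The count of the energy genes called, 2 (1 higher, 1 lower), was 1 (0 higher) with a pseudocount of 0.1, size factors, annotated transcripts only, an 80% rule or a log2 fold change of at least 2, and 0 (0 higher, 0 lower) with no filter and with the replicate block, where limma gave 5 of them an unadjusted p under 0.05 each time. With no filter AMPD3 had a limma adjusted p of 0.0916. Of all genes, 251 (151 higher, 100 lower) were called by limma, and 63 (40 higher, 23 lower) with no filter, 134 (81, 53) with a mean of at least 5, 163 (95 higher) with annotated transcripts only, 67 (28, 39) with a log2 fold change of at least 2, and 288 (124, 164) with quantile normalization. The 2 energy genes called with TPM and with quantile normalization were AMPD3 and AMPD1. The replicate block called 135 (79, 56), with AMPD3 at adjusted p = 0.0555 and SLC6A8 at 0.0776 (limma). Same-numbered animals are different animals, their deviations correlated at 0.084, 0.0869 and 0.0745, and although each library correlated best with its own number, the numbers were not taken to pair them.

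Leaving out 1 animal gave 3 (without Shandong black replicate 3) to 593 (without Luxi replicate 1) called genes, 2 to 463 higher and 1 to 130 lower, and 0 to 4 of the energy genes, 0 to 3 higher and 0 to 1 lower. Fold changes then ran from -0.16 to 0.78 for CKM, -0.0677 to 0.26 for MB, -0.0899 to 0.52 for UCP2 and -1.20 to 1.69 for UCP3. The log2 ratios ran from -1.02 to 0.98 for CKB to CKM, -0.0333 to 0.93 for CKMT2 to CKM, -0.74 to 0.41 for MB to CKM and -1.16 to 2.54 for UCP2 to UCP3. Differences of the size seen for CKM, MB and UCP2 were within the spread between the 3 animals of a breed.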

Other observations

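The genes whose log2(FPKM + 1) followed each energy gene most closely over the 6 animals were listed by Pearson's r, as a description without a p. For AK1 these were ENO3, the muscle enolase of glycolysis (r = 0.996), and PPP5C (0.995). For AMPD3 they were TMEM159 (0.997) and ZNF774 (0.995), and for SLC6A8 RC3H2 (0.997) and GABPB1 (0.996). For AMPD1 they were GOLPH3 and ZNF516 (both 0.998), for CKM LSM2 and ZNF550 (both 0.997), and for CKMT2 TAGAP (0.989) and ATG14 (0.981). For UCP2 they were KTI12 (0.993) and UBE3B (0.991), for UCP3 THYN1 (0.995) and PCBP1 (0.993), and for MB COL18A1 (0.989) and LOC101904449 (0.986). With 6 animals in 2 breeds such values are common: 548 genes had an r over 0.9 with AK1 and 61 with MB.

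Transcripts off the strand of a gene within its span came to 0.196% to 0.451% of CKM, 0.0941% to 0.177% of MB, 0.384% to 0.834% of AK1 and 5.26% to 11.8% of SLC6A8 over the 6 animals. They were up to 16.6% of AMPD3 in Shandong black cattle and 73.0% in Luxi replicate 1, and 244.0% of the counted UCP3 level in Luxi replicate 1, with at most 1.59% of UCP3 in the other animals.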
